A study of Mus musculus with 12 samples.

Results

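Members of the Wnt signalling family were followed in cortical neurons that had been taken from C57BL/6J mouse embryos (E17.5) and cultured with or without erinacine S, a compound isolated from mycelium of Hericium erinaceus. They were all protein-coding genes of the deposited table whose symbol is that of a Wnt ligand (Wnt), a Frizzled receptor (Fzd), a secreted Frizzled-related protein (Sfrp), a Dickkopf (Dkk) or an R-spondin (Rspo), together with Wif1, Frzb, Axin2, Lef1, Lrp5, Lrp6, Nkd1 and Notum. This rule uses names alone and took 49 of 51912 genes, of which 22025 are protein-coding. By role they were 19 ligands, 10 Frizzled receptors, 2 coreceptors, 4 R-spondins, 10 secreted inhibitors and 4 feedback genes. The 12 RNA libraries form 4 groups of 3: culture for 48 h with erinacine S or with DMSO, and culture for 16 h with either. Erinacine S was given at 1 µg/mL and DMSO is its solvent. No genetic change was made, and all groups share the wild-type strain, the removal of the meninges at dissection and a B27-supplemented medium. The culture is a whole cortical dissociate, so it can hold progenitors and glia beside neurons. The labels name the 3 libraries of a group as independent repeats without giving the litter, dish or day behind each, so p-values measure the spread between these libraries and that spread may be technical.

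Wnt proteins are lipid-modified secreted signals. They bind a Frizzled receptor with the coreceptor Lrp5 or Lrp6, which stabilises β-catenin and lets it switch on genes with TCF/LEF factors, while other Wnt ligands act on cell polarity and calcium without β-catenin. R-spondins keep Frizzled receptors at the cell surface, whereas Sfrp proteins, Frzb and Wif1 bind the ligands themselves and Dkk proteins block the coreceptors. Axin2, Nkd1, Notum and Lef1 are classical targets of the β-catenin branch, and the products of Axin2, Nkd1 and Notum feed back to restrain it. In the embryonic cortex the pathway is known for patterning the medial wall, for holding progenitors in division and later for axon and dendrite growth and vessel growth into the brain.

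Promoter windows of some members described below are printed to show the sequence at their starts: 3 feedback genes, the inhibitor with the largest differences and 2 ligands. Among them Axin2 and Wnt7a passed in no comparison of the main fit. They come from RefSeq on GRCm38.p6 and hold 250 bases before and 50 after an annotated transcript start, read in the direction of the gene. Windows were on hand for 32 of the 49 members, 38 in all, and not for Wnt7b, Sfrp1 or Rspo3. Capitals mark CTTTGAA or CTTTGAT, letters that TCF/LEF factors are known to bind, searched on both strands; the pair differ in the last letter and cannot match at the same place. Lef1 and Wnt5b have further windows, which hold no match, among them that at the outermost start of Wnt5b. The printed windows of Nkd1 and Wnt5b lie at starts inside the span given for the gene.
Axin2, chr11:108920099-108920398, plus strand: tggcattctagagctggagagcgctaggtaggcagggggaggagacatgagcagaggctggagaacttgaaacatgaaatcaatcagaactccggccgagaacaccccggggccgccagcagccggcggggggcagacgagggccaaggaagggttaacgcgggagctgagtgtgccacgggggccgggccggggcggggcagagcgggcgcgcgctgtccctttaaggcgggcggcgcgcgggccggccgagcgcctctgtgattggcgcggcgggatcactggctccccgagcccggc
Lef1, chr3:131110073-131110372, plus strand: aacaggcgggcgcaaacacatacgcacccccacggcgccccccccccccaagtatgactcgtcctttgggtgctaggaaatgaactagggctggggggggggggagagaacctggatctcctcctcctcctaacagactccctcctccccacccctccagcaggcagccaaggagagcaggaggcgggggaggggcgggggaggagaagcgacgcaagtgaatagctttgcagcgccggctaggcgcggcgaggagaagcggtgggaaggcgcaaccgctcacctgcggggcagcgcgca
Nkd1, chr8:88527383-88527682, plus strand: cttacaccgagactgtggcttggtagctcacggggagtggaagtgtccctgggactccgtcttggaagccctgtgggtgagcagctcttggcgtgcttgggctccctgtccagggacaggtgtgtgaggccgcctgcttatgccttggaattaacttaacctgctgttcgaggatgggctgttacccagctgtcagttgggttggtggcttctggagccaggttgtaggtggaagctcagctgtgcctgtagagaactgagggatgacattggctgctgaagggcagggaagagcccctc
Wif1, chr10:121033754-121034053, plus strand: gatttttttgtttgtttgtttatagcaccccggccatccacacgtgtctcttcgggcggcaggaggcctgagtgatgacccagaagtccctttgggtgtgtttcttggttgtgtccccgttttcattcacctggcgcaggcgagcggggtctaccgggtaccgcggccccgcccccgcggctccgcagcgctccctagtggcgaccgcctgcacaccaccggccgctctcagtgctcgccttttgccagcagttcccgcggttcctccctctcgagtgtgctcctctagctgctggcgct
Wnt7a, chr6:91411304-91411603, minus strand: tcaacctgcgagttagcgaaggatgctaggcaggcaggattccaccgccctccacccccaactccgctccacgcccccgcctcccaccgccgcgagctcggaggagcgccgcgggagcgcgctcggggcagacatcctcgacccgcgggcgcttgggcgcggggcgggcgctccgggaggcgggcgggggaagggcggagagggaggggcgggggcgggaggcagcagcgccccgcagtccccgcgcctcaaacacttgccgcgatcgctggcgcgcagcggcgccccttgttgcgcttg
Wnt5b, chr6:119449337-119449636, minus strand: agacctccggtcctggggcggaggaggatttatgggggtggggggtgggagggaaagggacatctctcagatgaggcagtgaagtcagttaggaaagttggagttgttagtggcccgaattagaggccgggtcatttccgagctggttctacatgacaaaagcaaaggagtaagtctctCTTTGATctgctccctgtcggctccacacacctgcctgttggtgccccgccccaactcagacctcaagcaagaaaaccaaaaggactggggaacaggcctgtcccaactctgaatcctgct
The letters were found in 2842 of 32851 promoter windows of the same length (8.65%) and in 3 of the 38 windows of members (7.89%). These 3 belong to Wnt5b, where the match starts 71 bases before the start site, Wnt11, where it starts 51 bases before it on the other strand, and Dkk1, where it starts 117 bases before it. No match in the other windows says only that these letters are not in them. The Wnt7a window is 76.0% G or C with 42 CG dinucleotides, the Axin2 window 70.0% with 31, the Lef1 window 67.3% with 21 and the Wif1 window 63.0% with 25. The Nkd1 window has 58.3% with 6 CG dinucleotides and the Wnt5b window 55.0% with 7, against medians of 52.7% and 7 over all windows.

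Expression was deposited as TPM, a transcript abundance scaled per transcript length and to the same total in each library. Levels of different genes can therefore be set side by side, but read depth is not kept and is unknown. Excitatory neuron markers summed to 4400 to 4740 TPM with erinacine S and 4560 to 4970 TPM with DMSO at 48 h, and to 3690 to 4290 TPM and 3510 to 4320 TPM at 16 h. Of the 7 microglia markers, 5 averaged at least 1 TPM, as did 1 of 8 meningeal fibroblast markers (Dcn) and 0 of 6 endothelial markers. Replicate 1 of erinacine S at 48 h stood apart from the other 2 libraries of its group. Its radial glia markers summed to 262 TPM, against 830 and 856 TPM in those 2 libraries, and its dividing-cell markers to 24.8 TPM, against 86.6 and 81.0 TPM. Its interneuron markers summed to 1590 TPM, against 687 and 679 TPM, of which Sst alone gave 1020 TPM, against 264 and 241 TPM. Gad1, Gad2 and Lhx6 were also higher in that library, whereas Dlx1 and Dlx2 were lower. Some results, among them those of Wif1 against DMSO at 48 h and of Fzd3 and Wnt5b over time, are also given without that library.

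The most abundant members were the inhibitor Sfrp1 and the ligand Wnt7b, with means over the 12 libraries of 60.0 and 54.7 TPM. They were followed by the receptors Fzd1 (32.3 TPM) and Fzd3 (28.3 TPM), the coreceptor Lrp6 (26.1 TPM), Wnt7a (21.6 TPM) and the R-spondin Rspo3 (16.7 TPM). Axin2, Dkk3, Fzd2, Lrp5, Fzd9, Nkd1 and Rspo2 lay between 10.1 and 13.0 TPM. Below them came Wnt5a (8.78 TPM), Fzd8 (6.8 TPM), Sfrp2 (6.08 TPM), Wif1 (5.16 TPM), Wnt5b (4.63 TPM), Fzd7 (3.87 TPM), Fzd4 (2.09 TPM), Wnt3 (1.89 TPM), Notum (1.28 TPM) and Lef1 (1.11 TPM). In the DMSO 48 h libraries Wnt7b (88.8 ± 4.76 TPM, SD, n = 3), Sfrp1 (70.2 ± 3.11), Fzd3 (32.9 ± 1.94) and Fzd1 (30.8 ± 1.79) led, and only Fzd3 and Fzd1 overlapped among these neighbours. With DMSO at 16 h the lead was Sfrp1 at 49.3 ± 4.7 TPM, followed by Wnt7b at 31.1 ± 4.58 TPM and Fzd1 at 30.9 ± 5.62 TPM, whose libraries overlapped. Of the 23 pairs of neighbours in the order of levels, libraries overlapped in 16 with erinacine S and 12 with DMSO at 48 h, and in 16 and 20 at 16 h.

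**Figure D1:**
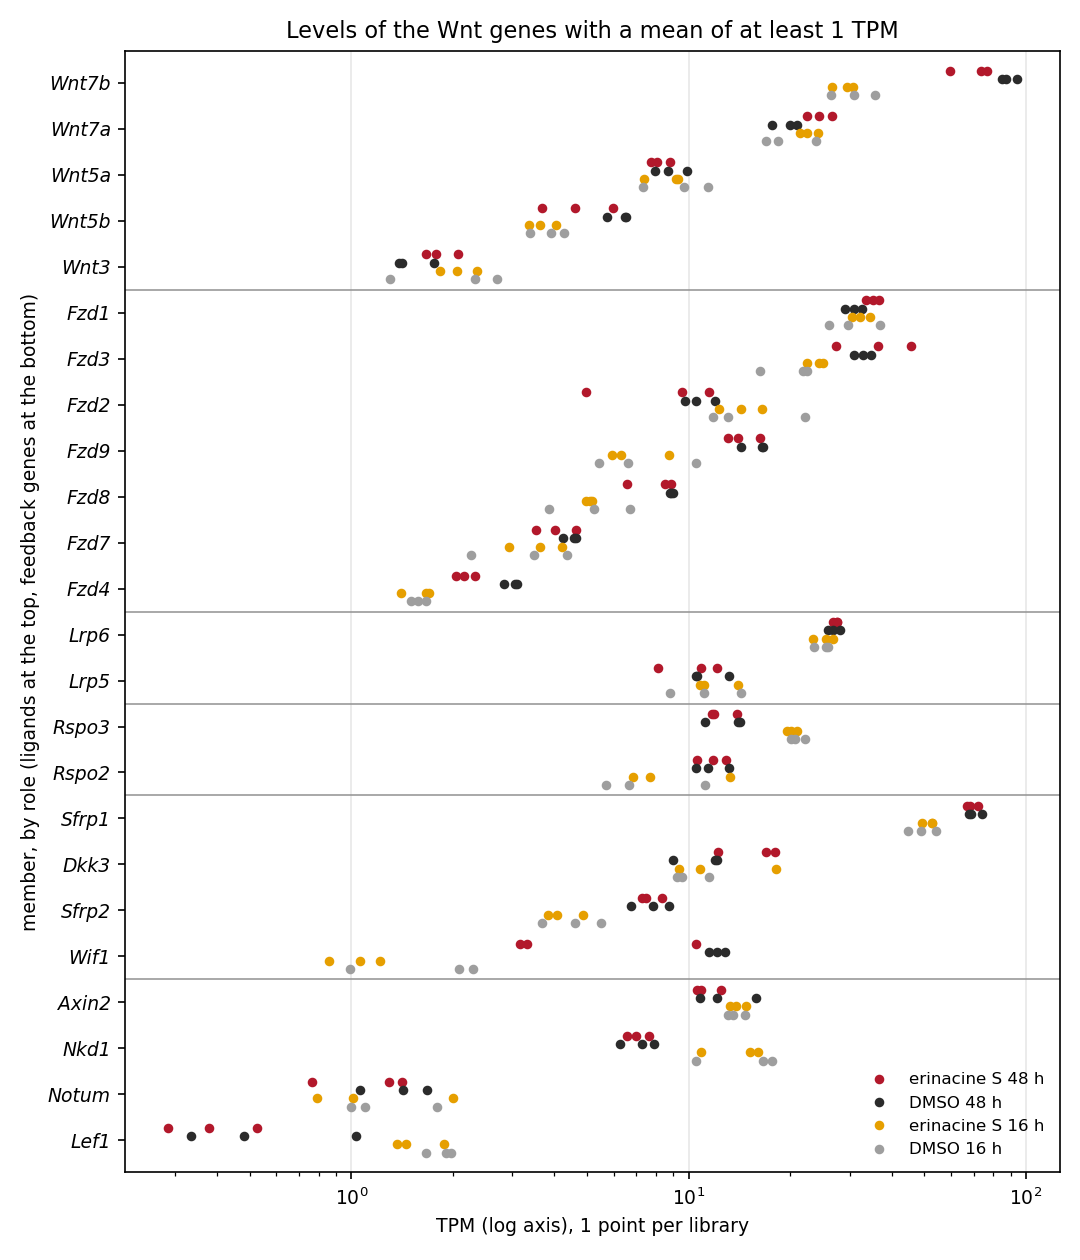
TPM on a log axis of the 24 members that averaged at least 1 TPM, one row per gene grouped by role, with a point per library and a colour per group (erinacine S and DMSO at 48 h, then at 16 h; 3 libraries each). Sfrp1 and Wnt7b lie highest, and Wnt7b and Wif1 show the widest gaps between the 48 h and the 16 h libraries.

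The other 25 members averaged under 1 TPM and lay between 0.0001 TPM, which the table holds in place of 0, and 2.26 TPM. They were 14 ligands, Fzd5, Fzd6, Fzd10, Rspo1, Rspo4, Frzb, Dkk1, Dkk2, Dkk4, Sfrp4 and Sfrp5. Just above the limit were Lef1 (1.11 TPM) and Notum (1.28 TPM), and just below it Fzd5, at 0.911 TPM. Rspo4 and Dkk4 were listed at 0 in all 12 libraries, and 6 of the 25 reached 1 TPM in at least 1 library. The ligands among them include Wnt1, the classical midbrain ligand, which was listed at 0 in 10 libraries, and Wnt3a and Wnt8b, known from the cortical hem, which were listed at 0 in 8 and 3 libraries. Lef1 passed the limit of 1 TPM through the 16 h groups, in which it was high.

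Wnt7b and Wnt7a, which signal through β-catenin in the developing brain and are needed for its vessels, made up most of the ligand transcripts. Summed TPM of all 19 ligands was 112 ± 6.66 with erinacine S and 128 ± 8.02 with DMSO at 48 h (SD, n = 3 each). At 16 h it was 67.4 ± 4.6 with erinacine S and 67.5 ± 11.1 with DMSO. Wnt7b took 62.4 ± 4.59% of this sum with erinacine S and 69.2 ± 1.35% with DMSO at 48 h, and 42.9 ± 1.05% and 46.1 ± 0.889% at 16 h. Wnt7a took 22.1 ± 3.23% and 15.2 ± 0.473% at 48 h, and 33.7 ± 1.27% and 29.3 ± 1.29% at 16 h. Wnt5a and Wnt5b, ligands best known for signalling without β-catenin, held 7.38 ± 0.984% and 4.23 ± 0.827% of the sum with erinacine S at 48 h, against 6.89 ± 0.343% and 4.86 ± 0.149% with DMSO.

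**Figure D2:**
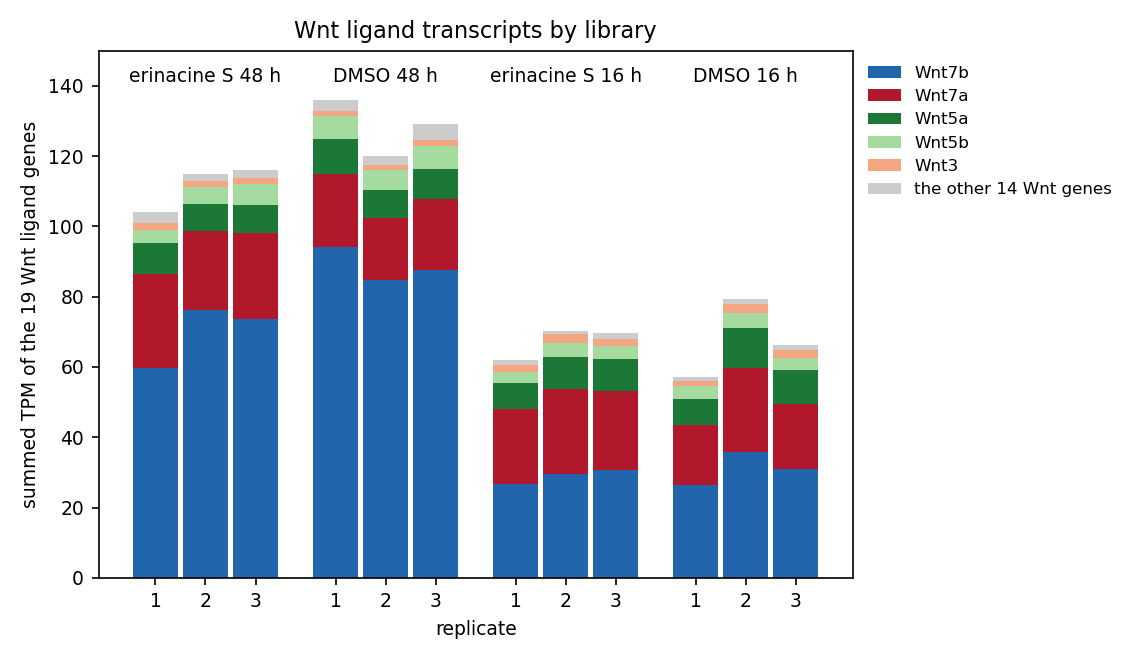
Summed TPM of the 19 Wnt ligands in each of the 12 libraries as stacked bars, with a colour each for Wnt7b, Wnt7a, Wnt5a, Wnt5b, Wnt3 and the other 14 ligands together. Sums are 104 to 116 TPM with erinacine S and 120 to 136 TPM with DMSO at 48 h, and 62.1 to 70.4 and 57.1 to 79.2 TPM at 16 h; the Wnt7b segment is the one that differs most between the times.

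Differences were tested with limma on log2(TPM + 1) for the 15623 genes with a mean of at least 1 TPM, so that 24 members were tested; fold changes on this scale understate those of low genes. An adjusted p (Benjamini-Hochberg over all 15623 genes) under 0.05 counts as a pass. Between 48 h and 16 h of culture, 7 members rose and 3 fell with erinacine S, and 9 rose and 3 fell with DMSO. That is 41.7% of the 24 with erinacine S, where 30.6% of all genes passed (15.1% higher and 15.5% lower). With DMSO it is 12 of 24, where 32.7% of all genes passed (16.1% higher and 16.6% lower). When libraries were weighted by their agreement, 16 members passed with erinacine S, where 59.8% of all genes did. The weighted fit rested largely on replicate 2 of erinacine S at each time, with weights of 5.58 at 48 h and 3.96 at 16 h. Libraries of the 2 times did not overlap for 14 members with erinacine S, against 44.9% of all genes, and for 13 with DMSO, against 50.5%. The median log2 fold change of the 24 members was 0.13 with erinacine S and 0.10 with DMSO, beside −0.03 over all genes in each. Wnt7b, Fzd3, Fzd8, Fzd9, Sfrp1, Sfrp2 and Wif1 rose in both treatments and Rspo3, Lef1 and Nkd1 fell in both. These 10 are 100% of the members that passed with erinacine S and 83.3% of those that passed with DMSO. The 2 comparisons have no library in common but are not independent, as they share 1 fit and its error estimate. Libraries of the 2 treatments also seem to be paired by replicate number at 16 h. Lef1 is among the 10 and met the limit of 1 TPM only through its 16 h groups. Over all genes, those that passed in both with the same sign were 76.9% of the genes that passed with erinacine S and 72.0% of those that passed with DMSO. Marker sums also differed between the times, and their part in these changes was not tested. The sum of the 6 oligodendrocyte lineage markers was 59.6 to 180 TPM at 48 h, against 54.5 to 87.5 TPM at 16 h, with erinacine S, and 195 to 225 TPM, against 52.0 to 101 TPM, with DMSO. The 3 intermediate progenitor markers summed to 24.5 to 52.2 TPM at 48 h, against 79.9 to 116 TPM at 16 h, with erinacine S, and to 47.2 to 50.4 TPM, against 87.0 to 136 TPM, with DMSO. The microglia markers summed to 1.22 to 8.67 TPM at 48 h, against 24.2 to 36.3 TPM at 16 h, with erinacine S, and to 15.8 to 23.2 TPM, against 20.5 to 39.1 TPM, with DMSO. Meningeal fibroblast markers were at 0.57 to 1.04 TPM at 48 h, against 4.58 to 6.06 TPM at 16 h, with erinacine S, and at 1.72 to 2.13 TPM, against 3.79 to 5.87 TPM, with DMSO. With erinacine S, radial glia markers were at 262 to 856 TPM at 48 h, against 426 to 518 TPM at 16 h. With DMSO they were at 763 to 821 TPM, against 460 to 557 TPM. Of the 8 radial glia markers, 2 rose and 0 fell with DMSO, and 0 rose and 2 fell with erinacine S. The higher sum with DMSO came largely from Fabp7. Means of Hes1, Hes5, Nes and Slc1a3 were also higher at 48 h with DMSO, and those of Pax6, Vim and Sox2 were lower. The sum thus does not stand for all radial glia markers. In bulk RNA fewer cells of a type and less RNA per cell cannot be told apart.

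**Figure D3:**
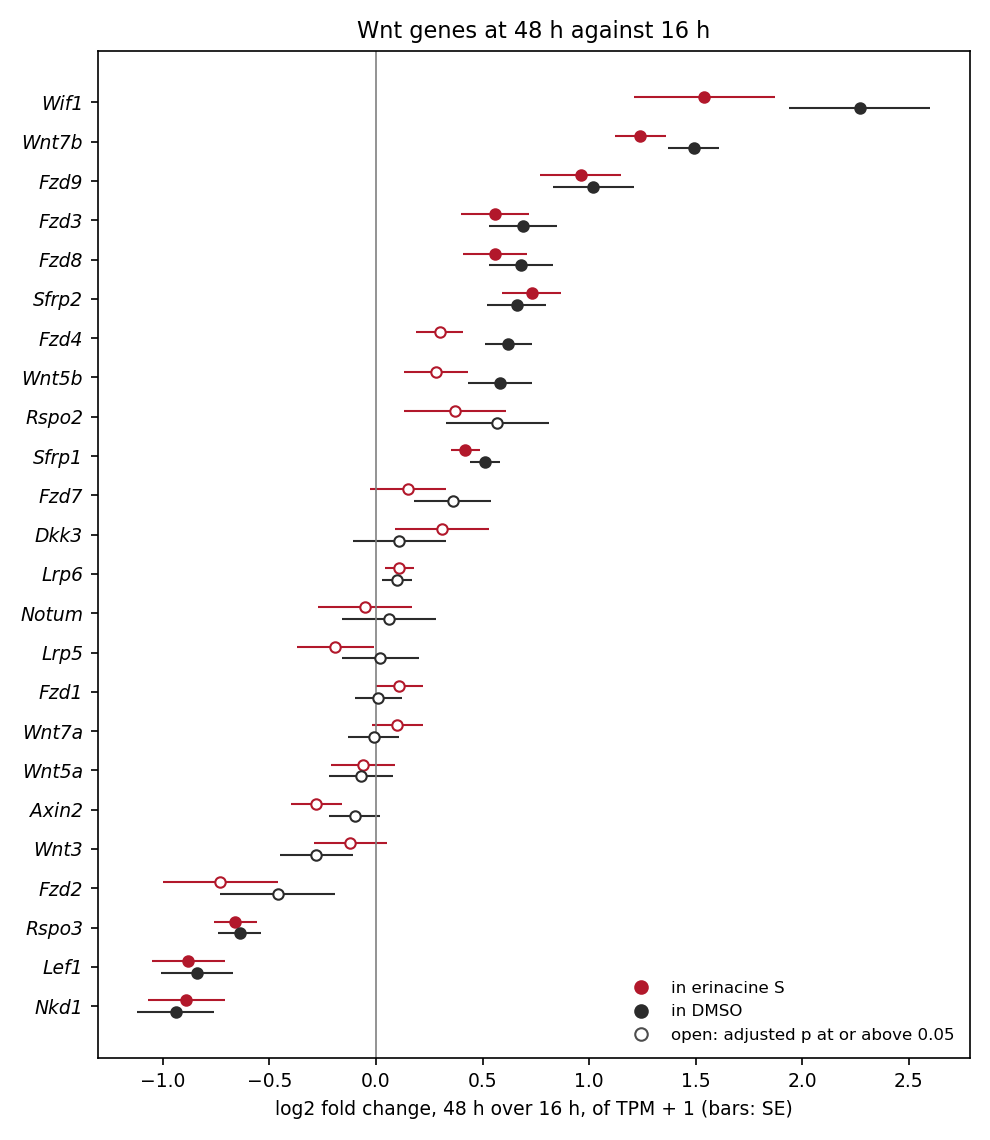
Log2 fold changes of TPM + 1 between 48 h and 16 h for the 24 tested members, with erinacine S and with DMSO, with bars for the SE from limma; filled points passed an adjusted p of 0.05 and open points did not. Wif1 and Wnt7b lie farthest to the right and Nkd1 and Lef1 farthest to the left, in both treatments.

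Wnt7b (ENSMUSG00000022382, GRCm38 chromosome 15, 85535439 to 85581821, minus strand) was the ligand with the largest rise. It had 59.4, 76.6 and 73.7 TPM with erinacine S and 94.2, 85.1 and 87.3 TPM with DMSO at 48 h, against 26.6, 29.5 and 30.7 TPM with erinacine S and 26.5, 35.7 and 31.0 TPM with DMSO at 16 h. Every 48 h library was above every 16 h library. Its log2 fold change was 1.24 ± 0.12 (SE) with erinacine S (limma adjusted p = 3.69e-05) and 1.49 ± 0.12 with DMSO (adjusted p = 1.18e-05). Wnt5b (ENSMUSG00000030170, chromosome 6, 119432531 to 119544347, minus strand) had 3.67, 4.6 and 5.97 TPM with erinacine S and 6.54, 5.72 and 6.47 TPM with DMSO at 48 h. At 16 h it had 3.36, 4.04 and 3.62 TPM with erinacine S and 3.9, 4.27 and 3.38 TPM with DMSO. The times overlapped with erinacine S (0.28 ± 0.15, limma adjusted p = 0.165) and did not with DMSO, where Wnt5b rose by 0.58 ± 0.15 (adjusted p = 0.0107). With erinacine S it also passed without replicate 1 at 48 h (0.42, limma adjusted p = 0.0393) and with libraries weighted by their agreement (0.23, adjusted p = 0.0368). Wnt5b overlaps Fbxl14, a gene on the opposite strand with a mean of 47.0 TPM, and the strand setting used for counting is not given in the sources used here, so reads of these 2 genes may not be told apart. Wnt7a, Wnt5a and Wnt3 did not pass in either treatment. Their levels at 48 h averaged 24.5 ± 2.08, 8.19 ± 0.559 and 1.84 ± 0.21 TPM with erinacine S and 19.6 ± 1.66, 8.86 ± 0.98 and 1.52 ± 0.215 TPM with DMSO (SD, n = 3).

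Among the receptors, Fzd9, Fzd8 and Fzd3 rose in both treatments, Fzd4 rose with DMSO, and none fell. Fzd9 (ENSMUSG00000049551, chromosome 5, 135248938 to 135251230, minus strand) had 13.1, 16.3 and 14 TPM with erinacine S and 16.6, 14.3 and 16.5 TPM with DMSO at 48 h. At 16 h it had 8.72, 5.94 and 6.32 TPM with erinacine S and 6.63, 10.5 and 5.43 TPM with DMSO, below all 48 h libraries. Its log2 fold change was 0.96 ± 0.19 with erinacine S (limma adjusted p = 0.00366) and 1.02 ± 0.19 with DMSO (adjusted p = 0.00229). Fzd3, known in mice for guiding axons through cell polarity signalling, had 45.7, 36.3 and 27.3 TPM with erinacine S and 34.8, 30.9 and 32.9 TPM with DMSO at 48 h, against 22.4, 24.4 and 25 TPM and 21.8, 22.4 and 16.3 TPM at 16 h. The 48 h libraries were all higher, and the erinacine S libraries at 48 h were spread most widely. The fold change was 0.56 ± 0.16 with erinacine S (limma adjusted p = 0.0213) and 0.69 ± 0.16 with DMSO (adjusted p = 0.00719). Without replicate 1 of erinacine S at 48 h the value with erinacine S was 0.38 (adjusted p = 0.0721). Fzd8 had 6.56, 8.48 and 8.89 TPM with erinacine S and 8.87, 8.83 and 8.96 TPM with DMSO at 48 h, against 4.95, 5.17 and 5.09 TPM and 5.23, 6.69 and 3.86 TPM at 16 h. The times did not overlap within either treatment. Fzd8 rose by 0.56 ± 0.15 with erinacine S (limma adjusted p = 0.0181) and by 0.68 ± 0.15 with DMSO (adjusted p = 0.00596).

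Fzd4 (ENSMUSG00000049791, chromosome 7, 89404355 to 89413134, plus strand), the receptor of norrin in vessels, had 2.16, 2.33 and 2.04 TPM with erinacine S and 3.09, 2.83 and 3.05 TPM with DMSO at 48 h. At 16 h it had 1.67, 1.4 and 1.7 TPM with erinacine S and 1.67, 1.58 and 1.5 TPM with DMSO. Both 48 h groups lay above both 16 h groups, with the DMSO group highest. It rose by 0.62 ± 0.11 with DMSO (limma adjusted p = 0.00157), and the value with erinacine S was 0.30 ± 0.11 (adjusted p = 0.0641). With erinacine S it passed without the filter on low values (0.30, limma adjusted p = 0.0204), with quantile normalization (0.43, adjusted p = 0.0122) and with library weights (0.40, adjusted p = 0.0007). The endothelial markers, a cell type in which Fzd4 is known to act, summed to 0.506 to 0.918 TPM with erinacine S and 0.818 to 1.22 TPM with DMSO at 48 h, and to 2.74 to 3.29 TPM and 2.13 to 2.67 TPM at 16 h. Fzd1, the receptor with the highest mean over the 12 libraries, averaged 35.1 ± 1.56 TPM with erinacine S and 30.8 ± 1.79 TPM with DMSO at 48 h, and 32.4 ± 2.08 and 30.9 ± 5.62 TPM at 16 h. Its share of the summed Frizzled TPM was 31.9 ± 0.872% and 28.6 ± 0.153% at 48 h. Fzd2 had 4.97, 9.56 and 11.5 TPM with erinacine S at 48 h, and 12, 9.72 and 10.5 TPM with DMSO, with the lowest value in the library that stood apart. Over time with erinacine S it passed as lower with a replicate block within each time (−0.73, limma adjusted p = 0.0398), with library weights (−0.62, adjusted p = 0.00206) and without replicate 3 at 48 h (−0.95, adjusted p = 0.0245). The block takes differences between replicates out of the error, so its p-values over time may be too small. Fzd7 lay between 2.27 and 4.63 TPM over all libraries. The coreceptors Lrp6 and Lrp5 averaged 27.3 ± 0.369 and 10.4 ± 2.05 TPM with erinacine S and 26.9 ± 1.07 and 11.4 ± 1.54 TPM with DMSO at 48 h, and did not pass in any comparison.

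Of the R-spondins, Rspo3 (ENSMUSG00000019880, chromosome 10, 29452416 to 29535867, minus strand) fell in both treatments. It had 11.7, 13.9 and 11.9 TPM with erinacine S and 11.2, 14.2 and 14 TPM with DMSO at 48 h, against 20.1, 19.5 and 20.9 TPM and 22.1, 20.1 and 20.7 TPM at 16 h. The times were far apart in both treatments, and the treatments overlapped at both times. The log2 fold change was −0.66 ± 0.10 with erinacine S (limma adjusted p = 0.00079) and −0.64 ± 0.10 with DMSO (adjusted p = 0.000768). Rspo2 averaged 11.8 ± 1.14 TPM with erinacine S and 11.7 ± 1.37 TPM with DMSO at 48 h, and 9.25 ± 3.5 and 7.85 ± 2.96 TPM at 16 h, with overlapping times. With a replicate block within each time Rspo2 passed as higher at 48 h with erinacine S (0.37, limma adjusted p = 0.032) and with DMSO (0.57, adjusted p = 0.0053). That block takes differences between replicates out of the error, also where times are compared, so these p-values may be too small. The replicate numbers seem to pair the libraries at 16 h only.

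Secreted inhibitors supplied the largest rise over time, that of Wif1 (ENSMUSG00000020218, chromosome 10, 121033960 to 121100650, plus strand), the Wnt inhibitory factor that binds Wnt proteins outside the cell. Wif1 had 10.5, 3.17 and 3.31 TPM with erinacine S and 11.5, 12.1 and 12.8 TPM with DMSO at 48 h, against 0.858, 1.06 and 1.22 TPM and 2.29, 0.988 and 2.08 TPM at 16 h. Every 48 h library exceeded every 16 h library. It rose by 1.54 ± 0.33 with erinacine S (limma adjusted p = 0.00462) and by 2.27 ± 0.33 with DMSO (adjusted p = 0.000448). Sfrp1, the member with the highest mean over the 12 libraries, had 72.0, 66.8 and 68.2 TPM with erinacine S and 73.8, 67.9 and 68.9 TPM with DMSO at 48 h, against 52.5, 52.6 and 49.1 TPM and 48.8, 54.2 and 44.8 TPM at 16 h. The treatments overlapped at each time and the times did not. It rose by 0.42 ± 0.07 with erinacine S (limma adjusted p = 0.00169) and by 0.51 ± 0.07 with DMSO (adjusted p = 0.000499). Sfrp2 rose by 0.73 ± 0.14 with erinacine S (limma adjusted p = 0.00289) and by 0.66 ± 0.14 with DMSO (adjusted p = 0.00446). Its levels were 7.69 ± 0.563 and 7.78 ± 1.0 TPM at 48 h, and 4.26 ± 0.543 and 4.59 ± 0.915 TPM at 16 h, with erinacine S and DMSO in turn. Dkk3, a divergent Dickkopf that is not a classical coreceptor blocker, did not pass over time.

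Lef1 and Nkd1 fell over time while Axin2 and Notum did not pass. Lef1 (ENSMUSG00000027985, chromosome 3, 131110471 to 131224356, plus strand), a TCF/LEF factor, had 0.526, 0.286 and 0.379 TPM with erinacine S and 0.48, 0.334 and 1.03 TPM with DMSO at 48 h, against 1.37, 1.88 and 1.45 TPM and 1.91, 1.67 and 1.98 TPM at 16 h. All 48 h libraries were lower than all 16 h libraries. Lef1 was tested only because its 16 h groups lifted its mean over 1 TPM, so its fall has to be read with that limit. The log2 fold change was −0.88 ± 0.17 with erinacine S (limma adjusted p = 0.00286) and −0.84 ± 0.17 with DMSO (adjusted p = 0.00317). Nkd1 (ENSMUSG00000031661, chromosome 8, 88521354 to 88594884, plus strand), which binds Dishevelled and restrains Wnt signals, had 7.65, 6.96 and 6.55 TPM with erinacine S and 6.25, 7.26 and 7.87 TPM with DMSO at 48 h. At 16 h it had 10.9, 15.2 and 16.0 TPM with erinacine S and 10.5, 17.6 and 16.6 TPM with DMSO, above all 48 h libraries. It fell by 0.89 ± 0.18 on the log2 scale with erinacine S (limma adjusted p = 0.00418) and by 0.94 ± 0.18 with DMSO (adjusted p = 0.00261). Axin2 (ENSMUSG00000000142, chromosome 11, 108920349 to 108950783, plus strand), part of the complex that destroys β-catenin and given here although it passed in no comparison, had 12.5, 10.9 and 10.6 TPM with erinacine S and 12.1, 10.8 and 15.8 TPM with DMSO at 48 h, against 14.8, 13.8 and 13.3 TPM and 13.1, 14.7 and 13.5 TPM at 16 h. The times overlapped with DMSO and not with erinacine S, and the fold changes were −0.28 ± 0.12 with erinacine S (limma adjusted p = 0.102) and −0.10 ± 0.12 with DMSO (adjusted p = 0.569). Notum, which removes the lipid from Wnt proteins, averaged 1.15 ± 0.34 TPM with erinacine S and 1.39 ± 0.312 TPM with DMSO at 48 h.

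The rest of the pathway was read from lists of 80 other genes, of which 68 were tested. Over time 17 of the 68 rose and 8 fell with erinacine S, and 18 rose and 5 fell with DMSO, with median log2 fold changes of 0.09 and 0.10, beside −0.03 over all genes. That is 36.8% of the 68 with erinacine S and 33.8% with DMSO, shares near the 30.6% and 32.7% of all genes that passed. Among 22 tested surface receptors and modulators the polarity proteins Prickle2 (1.38 ± 0.18 with erinacine S and 1.61 ± 0.18 with DMSO, limma adjusted p = 0.000328 and 0.000105) and Prickle1 (0.84 ± 0.15 and 0.96 ± 0.15) were among the largest rises in both treatments. The R-spondin receptor Lgr4 rose by 0.65 ± 0.12 in each, and Gpc6, a glypican, by 0.57 ± 0.14 with erinacine S and 1.03 ± 0.14 with DMSO. Draxin, an axon guidance protein that also antagonises Wnt signals, fell by 0.49 ± 0.12 with erinacine S and by 0.76 ± 0.12 with DMSO (limma adjusted p = 0.00949 and 0.000755), and the receptor Ror2 fell by 0.54 ± 0.13 and 0.42 ± 0.13. The cadherin Celsr1 (−0.97 ± 0.25) and the Dkk receptor Kremen1 (−0.39 ± 0.14) passed with erinacine S, and Reck (−0.41 ± 0.12), which presents Wnt7 ligands, passed with DMSO. Of the 33 relay genes inside the cell, 7 rose and 2 fell with erinacine S and 9 rose with DMSO. Nkd2, a relative of Nkd1, rose by 0.61 ± 0.11 and 0.81 ± 0.11, the formin Daam1 by 0.40 ± 0.06 and 0.55 ± 0.06, and Amer1 by 0.50 ± 0.12 and 0.45 ± 0.12, with erinacine S and DMSO in turn, and Cxxc4, an inhibitor, passed with erinacine S (0.50 ± 0.14). The kinase Csnk1e (−0.24 ± 0.06) and the scaffold Axin1 (−0.22 ± 0.06) passed with erinacine S. Of 11 tested target genes, Znrf3, which removes Frizzled receptors, rose by 0.66 ± 0.18 and 0.68 ± 0.18 and Apcdd1, an inhibitor, by 0.53 ± 0.15 and 0.70 ± 0.15. Id2 fell by 0.85 ± 0.14 with erinacine S and 0.70 ± 0.14 with DMSO, and Cd44 passed with erinacine S (−1.17 ± 0.30). Porcn, which attaches the lipid to Wnt proteins, passed with DMSO (−0.42 ± 0.13), and Wls, which carries them to the surface, did not pass. No difference between the treatments in these time changes passed for any of the 68 genes.

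Erinacine S against DMSO at 16 h gave 0 calls among the 24 members, where 0.0% of all genes passed. At an unadjusted limma p under 0.05 there were also 0 members, against 1.29% of all genes. The groups overlapped for all 24 members, and did not for 4.19% of all genes. The median log2 fold change was −0.01 over the members and 0.01 over all genes. The 3 members with the smallest p were Wnt7a (0.20 ± 0.12), Fzd3 (0.25 ± 0.16) and Wif1 (−0.42 ± 0.33), each with a limma adjusted p of 1.0. Wnt7a had 21.4, 24.2 and 22.5 TPM with erinacine S and 17.0, 23.9 and 18.4 TPM with DMSO. None of the 68 other pathway genes passed. The fit holds no replicate block, so differences shared by libraries of the same number stay in its error. With a replicate block within each time 0 members passed too, where 0.0% of all genes did.

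**Figure D4:**
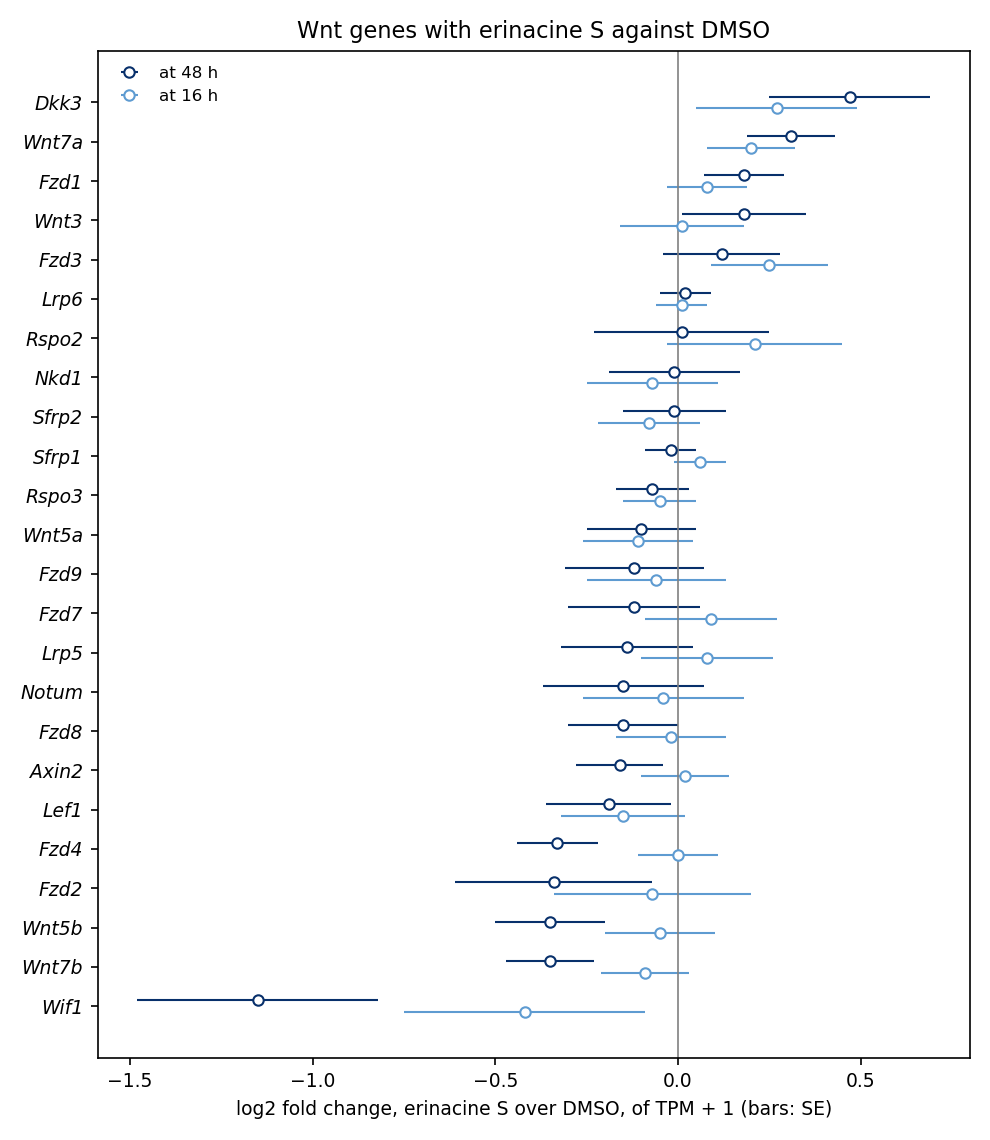
Log2 fold changes of TPM + 1 between erinacine S and DMSO for the 24 tested members, at 48 h and at 16 h, with bars for the SE from limma. No point passed an adjusted p of 0.05; at 48 h Wif1 is lowest at −1.15 and Dkk3 highest at 0.47.

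At 48 h, too, 0 of the 24 members passed, where 0.134% of all genes did. By unadjusted limma p under 0.05 there were 5 members, against 8.96% of all genes, and the groups did not overlap for 6, against 19.3% of all genes. The median over the members was −0.11 and over all genes 0.01. The 3 smallest p belonged to Wif1 (−1.15 ± 0.33, limma adjusted p = 0.28), Wnt7b (−0.35 ± 0.12, adjusted p = 0.37) and Fzd4 (−0.33 ± 0.11, adjusted p = 0.388). Wif1 was at 10.5, 3.17 and 3.31 TPM with erinacine S, below all 3 DMSO libraries, which had 11.5, 12.1 and 12.8 TPM. Replicate 1, the erinacine S library that stood apart, was the one close to the DMSO values. Without that library Wif1 fell, with a log2 fold change of −1.63 (limma adjusted p = 0.00525), where 0.73% of all genes passed. When libraries were weighted by their agreement, replicate 1 had a weight of 0.195, beside 5.58 for replicate 2 and 1.1 for replicate 3. The weighted erinacine S values at 48 h thus rested largely on replicate 2. In that fit Wif1 (−1.61), Wnt7b (−0.23), Fzd4 (−0.28) and Wnt5b (−0.33) passed as lower and Dkk3 (0.65) as higher, where 10.2% of all genes passed.

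Outside the rule for named members, Wnt7a, Wnt5b, Dkk3 and Fzd1 are given here after their values were seen, as the other members under an unadjusted p of 0.05 or with groups apart. Wnt7a (ENSMUSG00000030093, chromosome 6, 91363981 to 91411363, minus strand) had 26.6, 22.5 and 24.4 TPM with erinacine S and 20.9, 17.7 and 20.0 TPM with DMSO at 48 h, with no overlap (0.31 ± 0.12, limma adjusted p = 0.471). Wnt5b was at −0.35 ± 0.15 (limma adjusted p = 0.51), and at −0.21 without replicate 1 of erinacine S (adjusted p = 0.731), with overlapping groups, while Fbxl14 on the opposite strand averaged 43.6 ± 0.917 TPM with erinacine S and 47.1 ± 3.65 TPM with DMSO. Dkk3 (chromosome 7, 112116017 to 112159057, minus strand) had 12.2, 18 and 17 TPM with erinacine S and 12.1, 12 and 8.98 TPM with DMSO (0.47 ± 0.22, limma adjusted p = 0.561), the lowest erinacine S library lying just above the highest DMSO library. Fzd1 had 36.6, 35.1 and 33.5 TPM with erinacine S and 32.6, 29.0 and 30.8 TPM with DMSO (0.18 ± 0.11, limma adjusted p = 0.666). Rspo3, Sfrp1, Sfrp2, Nkd1 and Lrp6 had log2 fold changes between −0.07 and 0.02 and overlapping groups.

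**Figure D5:**
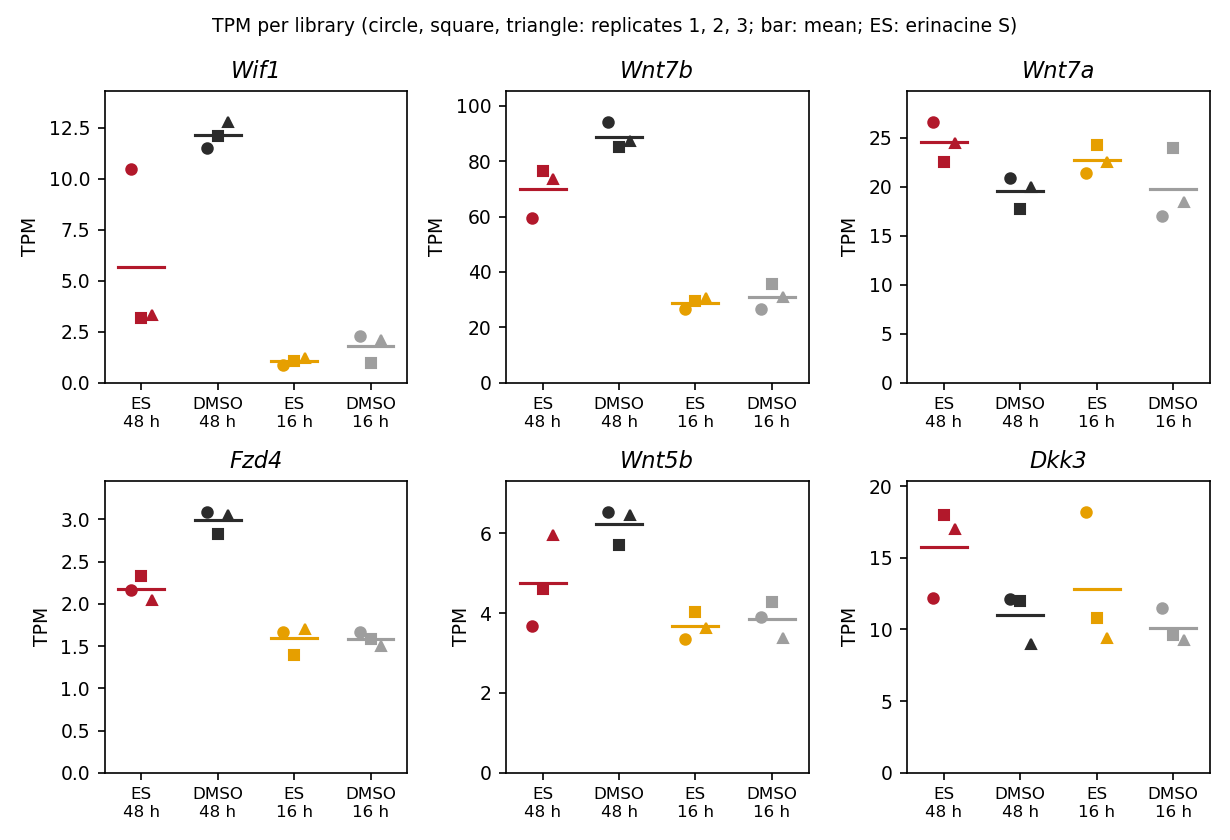
TPM in each library of Wif1, Wnt7b, Wnt7a, Fzd4, Wnt5b and Dkk3, a panel per gene, with erinacine S left of DMSO, first at 48 h and then at 16 h, and a line at each group's mean. For Wif1, replicate 1 of erinacine S at 48 h (10.5 TPM) lies near the DMSO 48 h libraries and the other 2 (3.17 and 3.31 TPM) lie well below them.

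With erinacine S at 48 h Wnt7b lay lower and Wnt7a higher than with DMSO, though neither passed. Their ratio was computed in each library after these values were seen, as a description. It was 2.23, 3.41 and 3.02 with erinacine S and 4.5, 4.8 and 4.36 with DMSO at 48 h. At 16 h it was 1.25, 1.22 and 1.36 with erinacine S and 1.56, 1.49 and 1.68 with DMSO. The erinacine S libraries were below the DMSO libraries at each time, and the 48 h libraries above the 16 h libraries in each treatment. Because the pair was picked by these values, the gap between the treatments is no support for a difference. How often other pairs of genes lie apart in this way was not computed.

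Marker sums of some other cell types also differed between the treatments at 48 h, and their part in the values of the Wnt genes was not tested. The 7 microglia markers summed to 1.22 to 8.67 TPM with erinacine S and 15.8 to 23.2 TPM with DMSO, and 1 of the 5 tested, C1qc, fell (−1.48 ± 0.24, limma adjusted p = 0.0413). The 6 oligodendrocyte lineage markers summed to 59.6 to 180 TPM with erinacine S and 195 to 225 TPM with DMSO, and 0 of 6 passed. The meningeal fibroblast markers summed to 0.57 to 1.04 TPM and 1.72 to 2.13 TPM, and the choroid plexus markers to 2.26 to 48.6 TPM and 44.0 to 70.6 TPM, with erinacine S and DMSO in turn. The choroid plexus sums overlapped, and 0 of the 1 meningeal and 0 of the 2 choroid plexus markers tested passed. Without replicate 1 of erinacine S at 48 h, where Wif1 passed, radial glia markers were at 830 and 856 TPM with erinacine S and 763 to 821 TPM with DMSO. In the same libraries oligodendrocyte lineage markers were at 169 and 180 TPM with erinacine S and 195 to 225 TPM with DMSO, and microglia markers at 7.23 and 8.67 TPM and 15.8 to 23.2 TPM. Meningeal fibroblast markers were at 1.04 and 0.871 TPM with erinacine S and 1.72 to 2.13 TPM with DMSO, and interneuron markers at 687 and 679 TPM and 841 to 1130 TPM. Of the interneuron markers, Sst, Gad1 and Gad2 were lower with erinacine S in these libraries, while Dlx1, Dlx2 and Lhx6 overlapped.

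Whether the erinacine S effect differed between 48 h and 16 h was tested as the difference of the 2 effects, which is also the difference between the time changes with erinacine S and with DMSO. It passed for 0 of 24 members, where 0.0% of all genes passed, and 0 members had an unadjusted p under 0.05, against 2.77% of all genes. The smallest p were those of Fzd4 (−0.33 ± 0.16), Wif1 (−0.73 ± 0.46) and Wnt7b (−0.26 ± 0.16), each with a limma adjusted p of 1.0. Without replicate 1 of erinacine S at 48 h the values of Wif1 and Wnt7b were −1.22 (limma adjusted p = 0.416) and −0.15 (adjusted p = 0.999). Fzd4 and Wnt5b, which passed over time with DMSO and not with erinacine S, are therefore not shown to differ between the treatments.

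In a fit without the limit of 1 TPM, 1 of the 25 low members passed over time with erinacine S, where 6.65% of all genes did. With DMSO 2 of the 25 passed, where 7.27% of all genes did. Both shares are over all 51912 genes, including those above the limit, and were not worked out for the low genes alone. Wnt2 (0.69 ± 0.10, limma adjusted p = 0.00556) and the Wnt-binding inhibitor Frzb (0.99 ± 0.16, adjusted p = 0.00826) rose with DMSO, and Wnt2b (0.47 ± 0.08, adjusted p = 0.0139) rose with erinacine S. Wnt2 had 0.578, 0.561 and 0.404 TPM with erinacine S and 0.826, 0.852 and 1.08 TPM with DMSO at 48 h, against 0.17, 0.13 and 0.163 TPM and 0.0931, 0.34 and 0.155 TPM at 16 h. Frzb had 0.965, 1.43 and 1.05 TPM with erinacine S and 1.1, 2.26 and 1.61 TPM with DMSO at 48 h, and at most 0.673 TPM at 16 h. None of the 25 passed between erinacine S and DMSO at either time.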

How the data were processed

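Total RNA of primary cortical neurons was sequenced from strand-specific libraries, 3 per group, and the titles give each group and replicate number. Per the submitters' processing notes, StringTie 2.1.3, HISAT2, SAMtools, FastQC, Trimmomatic 0.36 and bcl2fastq 2.20 were used with GRCm38.p5. No order of steps, annotation release or strand setting is given in the sources used here. The data that the authors deposited are 1 table of TPM per gene with Ensembl identifiers and coordinates, in which 0.0001 stands in place of 0. TPM keep no depth, so precision is given by the spread between libraries, and a change in total RNA per cell cannot be read from them.

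From this table log2(TPM + 1) was computed and 15623 genes with a mean of at least 1 TPM were tested in R 4.3.3 with the package limma 3.58.1, using a variance trend. A single fit held 1 mean per group for all 12 libraries. Tests were two-sided, adjusted by Benjamini-Hochberg over all genes tested, at 0.05. The alternatives were other pseudocounts, filters and scalings, replicate blocks, library weights, robust variance moderation, a fit of only the libraries compared and each library left out in turn.

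The members, the lists and the tests were chosen with earlier results of these data known. Every member of at least 1 TPM is named with its level. Fold changes with tests are given for members that passed in a comparison and for the 3 with the smallest p of each erinacine S comparison. Axin2, Rspo2 and Fzd2 over time, and Wnt7a, Wnt5b, Dkk3 and Fzd1 at 48 h, are given with fold changes outside this rule, chosen after their values were seen. From the other pathway genes the text names those among the 3 largest rises and falls per list over time. Kremen1, the smallest of the 4 falls that passed with erinacine S in its list, is named outside this rule. Replicates correlated at 0.98 to 0.995 across genes, and no libraries were identical. Libraries with the same number deviated from their groups with correlations of 0.48, 0.185 and 0.51 at 16 h, against −0.448 to 0.109 for those with other numbers. The numbers thus seem to pair the libraries there, though the labels do not state a pairing. At 48 h the correlations were −0.0219, 0.107 and −0.192, with no sign of a pairing. Promoter sequences are from RefSeq on GRCm38.p6 and were matched by symbol.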

Additional observations from a re-analysis of the deposited data

How the results depend on the processing

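Of 33 results for single members, 26 kept their call and sign under each of the alternatives run for them, 17 to 23 per result of 24 in all, and none of these reversed a direction. Results over time that passed only under an alternative, such as those of Fzd4, Wnt5b and Fzd2 with erinacine S and of Rspo2, are not among the 33. For erinacine S against DMSO at 48 h, library weights gave 5 calls among the members and leaving out each library gave 0 to 1, where the single call, Wif1, came without replicate 1 of erinacine S at 48 h. Over time with erinacine S, library weights gave 16 calls, where 59.8% of all genes passed, and leaving out each library 8 to 11, where 19.9% to 31.3% did. With DMSO leaving out each library gave 12 to 15, where 21.8% to 29.3% of all genes passed. Without replicate 1 of DMSO at 16 h, Rspo2 (0.82), Fzd7 (0.52) and Wnt3 (−0.48) passed with DMSO (limma adjusted p = 0.019, 0.0469 and 0.0324), and without replicate 1 of erinacine S at 16 h, Rspo2 (0.63) and Dkk3 (0.58) passed with erinacine S (adjusted p = 0.0467 and 0.0315). The cause was not tested. At 16 h, and for the difference of the erinacine S effects, every setting run gave 0 calls. Fzd3 over time missed the threshold without a filter on low values in both treatments (limma adjusted p = 0.122 with erinacine S and 0.0535 with DMSO). With erinacine S it also did so with only the libraries compared (0.0521) and without any of 4 libraries: replicates 1 and 2 at 48 h (0.0721 and 0.0547) and replicates 1 and 2 at 16 h (0.0573 and 0.0547). Fzd8 with erinacine S missed it without the filter (0.0765) and without replicate 2 or 3 at 48 h (0.0581 and 0.0606). With a replicate block within each time, erinacine S against DMSO gave 0 calls among the members at both times. The times then gave 12 calls with erinacine S and 13 with DMSO, where 32.9% and 34.3% of all genes passed, though this block may make p-values over time too small. With the block over all libraries the calls over time were 10 and 13, where 31.0% and 33.1% of all genes passed. TPM carry no counts, so what depth limits could not be read from them.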
